A study of Drosophila melanogaster with 29 samples.

Results

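Most antimicrobial peptides of Drosophila are short secreted effectors of the humoral immune response. Of the 10 antimicrobial peptide genes considered (AttA, AttC, AttD, CecA1, CecC, DptB, Dro, Drs, Mtk and Def), a gene was taken where a probe set named it alone in the probe-to-gene table, its symbol updated by Entrez identifier, with the brightest probe set kept per gene. This rule found 5 of the 10, AttD, DptB, Drs, Mtk and Def, each with 1 probe set, among 11981 genes with a probe set of their own. AttA, AttC, CecA1, CecC and Dro were not analysed here. Def, a defensin active against Gram-positive bacteria, lay at the floor of the deposited values on all 29 arrays and was not tested, so 4 members were among the 11664 genes tested.

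The arrays measured total RNA of S2 cells, an embryonic Drosophila line with blood-cell character, on 29 one-colour Affymetrix arrays. Mock cells, labelled untreated, gave 14 arrays, and RNAi against dKDM2, dRING, PC, PH and PSC, components of Polycomb-group repression or partners of them, gave 3 arrays each after 4 days of double-stranded RNA. All cells grew at 25 °C in 10% serum, and 7 µg of RNA with an integrity number above 8 was labelled per array. Because Mock is labelled untreated, exposure to double-stranded RNA and loss of the target cannot be told apart in a comparison with Mock. The arrays of a group are labelled as biological replicates, but no label names separate cultures, and a p-value therefore reflects only the spread from array to array, which may in part be technical. In these bulk samples, fewer cells of a type and less RNA per cell cannot be told apart.

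As background, antimicrobial peptide genes are switched on by the Toll and Imd pathways. Peptidoglycan receptors and the adaptor imd lead to the NF-kappaB factor Rel in the Imd pathway, while Tl, Myd88, tub and pll lead to degradation of the inhibitor cact and to release of dl and Dif in the Toll pathway. Drs is a classical readout of Toll signalling, attacin and diptericin genes are readouts of Imd signalling, and Mtk responds to both. Blood cells and the fat body are the main sources of these peptides in the fly.

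The targeted genes were checked where a probe set named them. Sce, which encodes dRING, fell by 4.41 on the log2 scale on the dRING arrays (limma adjusted p = 1.24e-07), and Pc fell by 2.21 on the PC arrays (limma adjusted p = 0.00206). On the arrays labelled PSC, the signal of Psc itself was opposite to the label, since it rose by 2.36 (limma adjusted p = 5e-06), so these are called the arrays labelled PSC throughout. Psc lay above every Mock array in all 5 depletions, with means of 10.24 on dKDM2, 9.31 on dRING, 9.54 on PC, 11.23 on PH and 9.13 on the arrays labelled PSC against 6.77 on Mock. For dKDM2 and PH the targeted genes were not analysed here. The added poly-A control RNAs were brighter on the dKDM2 and PH arrays, with a mean log2 signal from 7.15 to 9.18 on dKDM2 and from 9.09 to 9.61 on PH against 2.96 to 7.12 on Mock. The lowest dKDM2 array thus lay next to the highest Mock array. Of 9 plasmatocyte markers tested, 7 had a mean log2 level above 4 on Mock and 4 on the arrays labelled PSC, while NimC1 at 2.40 and Hml at 3.29 were low on Mock. The 4 fat body markers tested lay at or near the floor in every group, with array means between 2.27 and 2.48.

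AttD had the largest change of the 4 tested antimicrobial peptide genes. It encodes an attacin, a glycine-rich peptide family active against Gram-negative bacteria. Its level, a normalized log2 signal with a floor of 2.27, ran from 2.62 to 4.91 on the 14 Mock arrays, with a median of 3.33. It was 5.76, 5.68 and 6.28 on the arrays labelled PSC. All of these lay above the highest Mock array, so the groups did not overlap. AttD rose by 2.35 on the log2 scale (SE 0.39, 95% interval 1.55 to 3.15), or 5.10-fold, on the arrays labelled PSC (limma adjusted p = 0.000106). It was the only member called at an adjusted p under 0.05 there, 1 of 4, where 16.6% of all genes tested were called. The call held in all 27 alternative settings, with changes between 2.15 and 2.66 and adjusted p between 2.45e-05 and 0.00627 from limma.

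**Figure D1:**
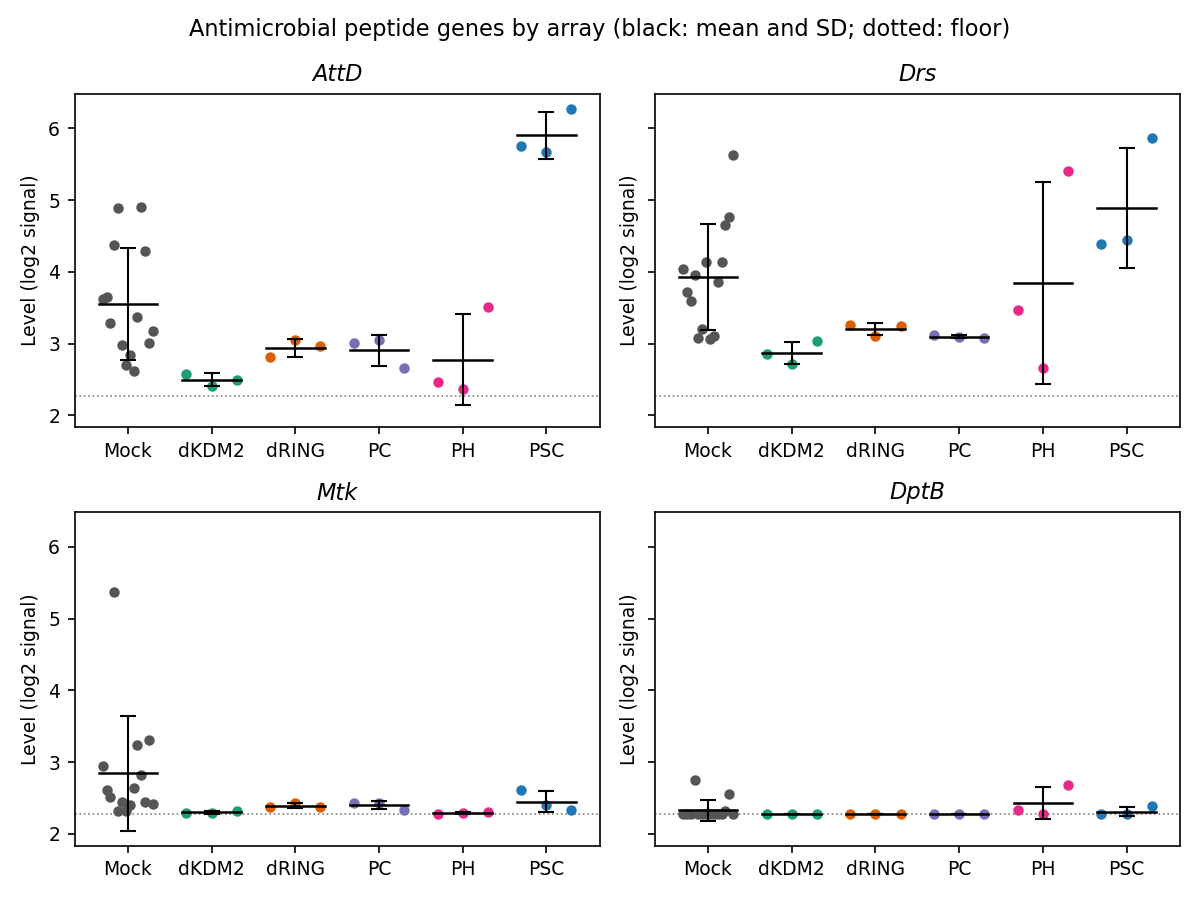
Log2 signal (y axis) of AttD, Drs, Mtk and DptB on each array of the 6 groups (x axis), with the group mean and SD in black and the floor of 2.27 as a dotted line. The arrays labelled PSC lie between 5.68 and 6.28 for AttD, above every Mock array, while Mtk and DptB lie near the floor in most groups.

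In the other depletions the mean of AttD was below that of Mock. On single arrays it was 2.58, 2.41 and 2.50 on the dKDM2 arrays, all just below the lowest Mock array. The change over Mock on the dKDM2 arrays was -1.06 (SE 0.39), or 2.08-fold lower, and passed the test (limma adjusted p = 0.0387), which made AttD the only called member there, 1 of 4 against 33.2% of all genes. This call was weak: it was lost in 9 of 26 alternatives, among them the deposited values (limma adjusted p = 0.117), where the dKDM2 arrays at 2.55 to 2.91 overlapped the Mock arrays at 2.49 to 5.05. It was also lost without Mock array 4 (limma adjusted p = 0.0502), without Mock array 12 (0.0512), and without dKDM2 array 1, 2 or 3 (0.0969, 0.129 and 0.0962), while the change itself lay between -1.10 and -0.99. With the poly-A signal as a covariate the change was -1.45 (SE 0.64, limma adjusted p = 0.115).

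The remaining depletions gave no called member. AttD was 2.81, 3.05 and 2.97 on the dRING arrays and 3.01, 3.05 and 2.65 on the PC arrays, all within the Mock range. The PH arrays, at 2.46, 2.36 and 3.51, were spread more widely, with the first 2 below the Mock range. With the deposited values the PH arrays, at 2.61 to 3.49, lay within the Mock range of 2.49 to 5.05. The change of AttD over Mock was -0.61 for dRING, -0.65 for PC and -0.78 for PH (limma adjusted p = 0.496, 0.443 and 0.134). With limma, 0 of 4 members were called in any of these depletions, against 2.78%, 4.55% and 35.1% of all genes. In each, 0 of 4 reached an unadjusted p under 0.05, against 2025, 2067 and 4882 of all 11664 genes. In descending order of mean AttD level, the groups were the arrays labelled PSC (5.90 ± 0.33, SD, n = 3), Mock (3.55 ± 0.78, SD, n = 14), dRING (2.94 ± 0.13, SD, n = 3), PC (2.90 ± 0.22, SD, n = 3), PH (2.77 ± 0.64, SD, n = 3) and dKDM2 (2.49 ± 0.09, SD, n = 3). Below the arrays labelled PSC, no neighbours in this order differed by the test.

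Drs, which encodes the antifungal peptide drosomycin, was higher on average on the arrays labelled PSC but did not pass the test. On the 14 Mock arrays it ran from 3.07 to 5.64, with a median of 3.90 and the highest value on array 14. It was 4.38, 4.44 and 5.86 on the arrays labelled PSC. Array 3 alone exceeded every Mock array, and the groups overlapped. The change over Mock was 0.97 (SE 0.46, 95% interval 0.02 to 1.92, limma adjusted p = 0.177, unadjusted p = 0.0460), and no alternative called it, with adjusted p between 0.0719 and 0.856.

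Drs lay low on the other depleted arrays, with an exception on PH. It was 2.86, 2.72 and 3.03 on the dKDM2 arrays, all below the lowest Mock array, and its change over Mock there was -1.06 (limma adjusted p = 0.0833). With the deposited values the dKDM2 arrays, at 3.03 to 3.18, lay within the Mock range of 2.99 to 5.91. A filter that kept genes reaching 4 on at least 3 arrays gave a call (limma adjusted p = 0.0441), while the poly-A covariate brought the change to -0.07 (limma adjusted p = 0.993). On the dRING arrays it was 3.25, 3.10 and 3.25, and on the PC arrays 3.12, 3.10 and 3.08. These lay at the low end of Mock, with changes of -0.72 and -0.83 (limma adjusted p = 0.490 and 0.383). The PH arrays were 3.46, 2.66 and 5.41, with array 2 below the Mock range and array 3 near its top, and with a change of -0.08 (limma adjusted p = 0.962). With the deposited values the PH arrays, at 3.06 to 4.97, lay within the Mock range.

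Mtk encodes metchnikowin, a proline-rich peptide active against fungi and bacteria. On the Mock arrays it ran from 2.32 to 5.37 with a median of 2.56, and Mock array 4 stood far above the rest, the next being 3.31. On the 15 depleted arrays it lay between 2.28 and 2.62, close to the floor. All PH arrays lay just below the lowest Mock array, and every other depletion had at least 1 array within the Mock range. With the deposited values the PH arrays, at 2.33 to 2.41, lay within the Mock range of 2.33 to 5.35. Its change over Mock lay between -0.55 and -0.39 in the 5 depletions and was not called in any (limma adjusted p from 0.297 to 0.711). Without Mock array 4 the change was -0.25 on dRING, -0.25 on PC and -0.20 on the arrays labelled PSC. With Mock arrays 1 to 3 as the only controls, the fit called it lower on dKDM2 (-0.39, limma adjusted p = 0.00639) and PH (-0.40, limma adjusted p = 0.00527).

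DptB, a diptericin gene and a readout of Imd signalling, was at the floor on 22 of 29 arrays. It was at the floor on 10 of 14 Mock arrays and on all dKDM2, dRING and PC arrays. The highest Mock value was 2.76, on array 4, and the highest depleted value was 2.68, on PH array 3. No comparison with Mock called it, and the largest change was 0.10 on PH (limma adjusted p = 0.425), although the deposited values without further scaling gave a call there (limma adjusted p = 0.0139). For a gene this near the floor a fall could hardly be measured.

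**Figure D2:**
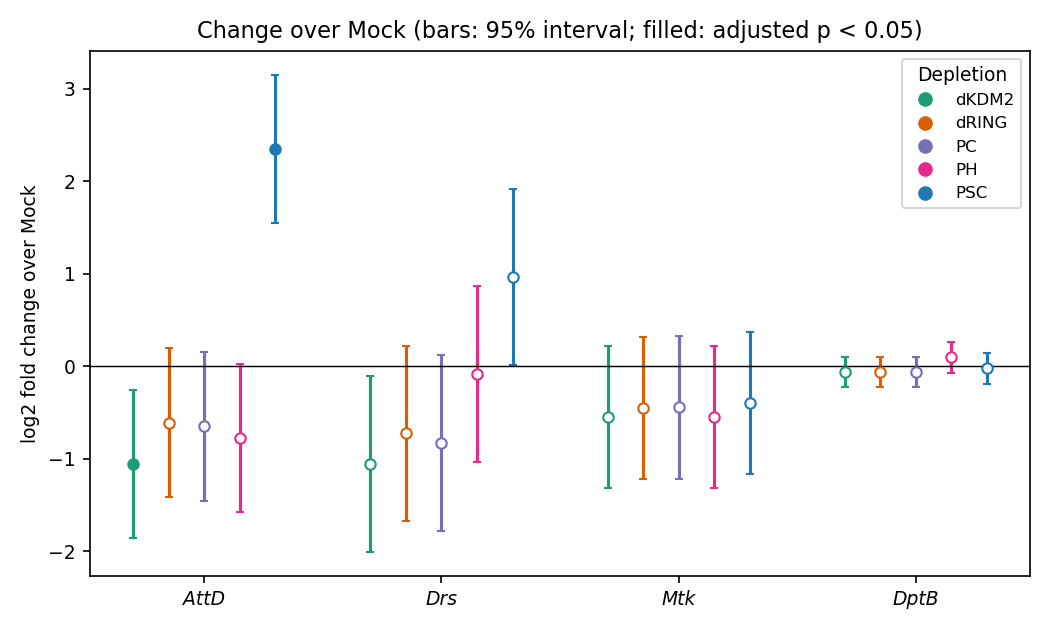
Log2 fold change over Mock (y axis) of the 4 tested members (x axis) in each of the 5 depletions, with 95% intervals as bars and filled points for an adjusted p under 0.05. AttD on the arrays labelled PSC, at 2.35, and on dKDM2, at -1.06, are the filled points.

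Differences between depletions were tested directly, since a call in 1 depletion and none in another does not show that they differ. AttD was lower on the dKDM2 arrays than on the arrays labelled PSC by 3.41 on the log2 scale (limma adjusted p = 3.21e-05). The differences for dRING, PC and PH were -2.96, -3.00 and -3.13 (limma adjusted p = 0.000381, 0.00028 and 8.35e-05). AttD was called in every alternative of these 4 comparisons. Drs was lower on dKDM2 than on the arrays labelled PSC by 2.02 on the log2 scale (limma adjusted p = 0.0187), a call that held in 11 of 15 alternatives and was lost without dKDM2 array 2 (limma adjusted p = 0.0564) or PSC array 3 (0.112) and with the poly-A covariate (0.705). For Drs, the dRING, PC and PH differences from the arrays labelled PSC were -1.69, -1.80 and -1.05 (limma adjusted p = 0.156, 0.108 and 0.240), and the PC difference was called with the deposited values (limma adjusted p = 0.0453) and with the replicate number as a block (limma adjusted p = 0.0432). Without PH array 3 the PH difference was -1.83 and was called (limma adjusted p = 0.0224), and so was the PC difference (0.0440). Members called numbered 2 of 4 for dKDM2 and 1 of 4 each for dRING, PC and PH against the arrays labelled PSC, against 16.4%, 3.37%, 3.94% and 17.5% of all genes. Among the pairs without the arrays labelled PSC, limma called 0 of 4 members, and 0 of 4 reached an unadjusted p under 0.05, against 13.7% of all genes for dKDM2 and dRING, 13.2% for dKDM2 and PC, 2.48% for dKDM2 and PH, 0.223% for dRING and PC, 16.6% for dRING and PH, and 16.2% for PC and PH. With the deposited values DptB was called for dRING against PH and for PC against PH, at -0.29 in each (limma adjusted p = 0.0400 and 0.0407). All comparisons with Mock share its 14 arrays, and all comparisons with the arrays labelled PSC share those 3.

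Among the untreated cells, none of the 6 relations between members passed a permutation test after adjustment. Over the 14 Mock arrays, AttD and Drs had a Pearson r of 0.04 (permutation p = 0.862) and a Spearman rho of 0.19 (permutation p = 0.510), and r was 0.27 without the 2 arrays farthest from the AttD median. For AttD and Mtk, r was 0.26 (permutation p = 0.432) and rho 0.21 (permutation p = 0.476), with r at 0.56 without the 2 farthest arrays. For Drs and Mtk, r was 0.10 (permutation p = 0.664) and rho 0.27 (permutation p = 0.355), with r at 0.22 without the 2 farthest. DptB, at the floor on 10 of these arrays, had an r of 0.90 with Mtk (permutation p = 0.00886, Benjamini-Hochberg adjusted 0.0532) and a rho of 0.43 (permutation p = 0.128). Both genes were highest on Mock array 4, and r was -0.18 without the 2 arrays farthest from the Mtk median, so the relation rests on those arrays. The relations of DptB with AttD and Drs had an r of 0.19 and 0.21 (permutation p = 0.519 and 0.453), and these and the other DptB relation were added after the correlations had been seen. Over the 6 relations the smallest adjusted permutation p was 0.0532 for r and 0.510 for rho. The highest Mock array differed by gene: array 11 for AttD, array 14 for Drs and array 4 for Mtk.

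Of the other immune effectors, 19 genes were tested, and on the arrays labelled PSC 1 of 19 was called higher and 0 lower, against 16.6% of all genes called, with a median change of -0.0040 against -0.0031 over all genes. The called gene was Tep4, a thioester-containing protein of the blood, which rose by 1.79 from a Mock mean of 9.71 ± 0.62 (SD, n = 14) to 11.50 ± 0.40 (SD, n = 3) (limma adjusted p = 0.000486), a call kept in all 27 alternatives. CecB, a cecropin that lyses bacterial membranes, was 3.72, 3.70 and 4.87 on the arrays labelled PSC and 3.60 to 6.79, median 4.92, on Mock, so the groups overlapped. Elsewhere the list had 2 higher and 0 lower after dKDM2 and 1 higher and 1 lower after PH, which is 10.5% of the list in each against 33.2% and 35.1% of all genes. It had 0 called after dRING and PC depletion by limma, against 2.78% and 4.55% of all genes. An unadjusted p under 0.05 was seen for 3 and 2 of its genes, against 2025 and 2067 of all 11664 genes. Drsl1 and Drsl4, genes related to Drs, were the higher genes on dKDM2, by 0.31 and 0.59 (limma adjusted p = 0.00357 and 0.0421). The Drsl4 call on dKDM2 was kept in 11 of 26 alternatives, and was lost without dKDM2 array 1 or 2 (limma adjusted p = 0.264 and 0.175). The Drsl1 change was 0.17 and not called without dKDM2 array 1 (limma adjusted p = 0.138). On PH Drsl4 rose by 0.96 and edin fell by 0.65 (limma adjusted p = 0.00138 and 0.0403). These calls were kept in 23 of 26 and 15 of 25 alternatives. The Drsl4 change on PH was 0.12 with the deposited values, -0.024 with median centring and 0.13 with the poly-A covariate. It was not called in these settings (limma adjusted p = 0.372, 0.972 and 0.913), and neither was edin.

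Within the Imd pathway, 19 genes were tested. On the arrays labelled PSC 2 were called higher and 1 lower, with a median change of 0.20, against 16.6% of all genes called and a median of -0.0031. The NF-kappaB factor Rel was 11.65, 11.78 and 9.86 on these arrays, while Mock ran from 7.70 to 10.79 with a median of 9.45. Arrays 1 and 2 lay above every Mock array and array 3 lay within the Mock range. Rel rose by 1.75 (SE 0.53, limma adjusted p = 0.0241), a call lost in 7 of 27 alternatives, among them the deposited values, Mock arrays 1 to 3 as the only controls, and leaving out PSC array 1 or 2 (limma adjusted p = 0.154 and 0.187). The intracellular peptidoglycan receptor PGRP-LE rose by 1.41 (limma adjusted p = 0.0121, lost without PSC array 2 at 0.153), and Uev1A, a ubiquitin-conjugating enzyme partner in the pathway, fell by 0.68 (limma adjusted p = 0.00579, and 0.0541 without PSC array 2). With Mock arrays 1 to 3 as the only controls the change of Uev1A was -0.25. It was then not called, without or with the replicate number as a block (limma adjusted p = 0.0954 and 0.0909).

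Rel was also higher on the dKDM2 arrays, where AttD was lower. It rose there by 1.78 (limma adjusted p = 0.0115, kept in 22 of 26 alternatives). The call was lost with the deposited values and median centring (limma adjusted p = 0.0794 and 0.120). With Mock arrays 1 to 3 as the only controls the change was 0.73 and was not called, without or with the replicate block (limma adjusted p = 0.362 and 0.134). On the dRING, PC and PH arrays the change of Rel was 0.94, 1.18 and 1.19 (limma adjusted p = 0.397, 0.233 and 0.0893). On dKDM2 the Imd list had 4 higher and 1 lower, or 26.3% against 33.2% of all genes, led by ben, a ubiquitin-conjugating enzyme (2.27, limma adjusted p = 5.83e-06), and by the kinase partner Tab2 (1.70, limma adjusted p = 0.00242), while the adaptor Fadd fell by 1.30 (limma adjusted p = 0.00129). On PH it had 3 higher and 2 lower, or 26.3% against 35.1% of all genes, with ben higher by 2.25 and Fadd and imd lower by 1.68 and 1.54 on the log2 scale (limma adjusted p = 6.47e-06, 8.68e-05 and 0.00730). The imd call was lost without PH array 1 (limma adjusted p = 0.117). With the poly-A covariate ben was 1.29, Fadd -1.17 and imd 0.27 on PH, none called (limma adjusted p = 0.172, 0.203 and 0.902). On dKDM2 Fadd was then -0.92 (limma adjusted p = 0.208), while ben was called in all 26 alternatives. With Mock arrays 1 to 3 as the only controls and no block, Tab2 on dKDM2 was 0.85 and Fadd -1.15. Neither was called (limma adjusted p = 0.299 and 0.0553). Median centring also lost Tab2 (0.0801). After dRING depletion 0 were higher and 2 lower, the caspase Dredd and Uev1A, against 2.78% of all genes called, and after PC depletion 0 were higher and 1 lower, Uev1A, against 4.55%. These 3 calls were each lost when any array of the depletion was left out, with limma adjusted p up to 0.266 for Dredd, 0.115 for Uev1A on dRING and 0.150 for Uev1A on PC. The replicate block, which pairs Mock with these depletions, keeps Mock arrays 1 to 3 as the only controls. With it the changes were -0.60 for Dredd, -0.24 for Uev1A on dRING and -0.17 for Uev1A on PC. None was called (limma adjusted p = 0.671, 0.265 and 0.551). The same controls without the block gave the same changes, again not called (limma adjusted p = 0.807, 0.336 and 0.677).

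Within the Toll pathway, 15 genes were tested, and on the arrays labelled PSC 4 were called higher and 0 lower, or 26.7% against 16.6% of all genes, with a median change of -0.0039. The inhibitor cact was 10.54, 10.48 and 9.16 on these arrays, against 5.59 to 8.66 on Mock, so the groups did not overlap. It rose by 2.44 (SE 0.49, limma adjusted p = 0.000834, and 0.0566 with Mock arrays 1 to 3 as controls and the replicate number as a block). Pli, the Pellino ubiquitin ligase that acts on the kinase pll, rose by 1.74 (limma adjusted p = 4.62e-05, kept in all 27 alternatives). The adaptors Myd88 and tub rose by 1.71 and 0.73 (limma adjusted p = 0.00604 and 0.0254), and the tub call was lost in 7 of 27 alternatives. Without PSC array 2 neither was called (limma adjusted p = 0.0690 for Myd88 and 0.121 for tub), and without PSC array 1 tub was not (0.0989). With Mock arrays 1 to 3 as the only controls the change was 1.13 for Myd88 and 0.35 for tub. Neither was then called (limma adjusted p = 0.293 and 0.428). With the replicate number as a block as well, Myd88 was again not called (limma adjusted p = 0.305), while the tub call was kept. The transcription factors dl and Dif were not called, with mean levels of 8.85 ± 0.16 (SD, n = 3) against 8.00 ± 0.64 on Mock (SD, n = 14) for dl, and 2.62 ± 0.07 (SD, n = 3) against 2.88 ± 0.45 (SD, n = 14) for Dif, near the floor.

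Toll genes were also called on dKDM2 and PH. Traf6, an adaptor, rose by 2.52 on dKDM2 and 2.69 on PH (limma adjusted p = 7.12e-06 and 2.91e-06), and the receptor Tl rose by 1.55 and 1.62 (limma adjusted p = 0.00283 and 0.00188). With the poly-A covariate the change of Tl was 0.20 on dKDM2 and -0.18 on PH (limma adjusted p = 0.939 and 0.929), and the PH call was also lost with median centring (0.0560). The kinase pll fell by 0.77 on dKDM2 (limma adjusted p = 0.0318, and 0.341 without dKDM2 array 2). The list thus had 2 higher and 1 lower on dKDM2 and 2 higher and 0 lower on PH, against 33.2% and 35.1% of all genes called. After dRING and PC depletion limma called 0 of 15, against 2.78% and 4.55% of all genes. Of the 15, 2 and 3 had an unadjusted p under 0.05, against 2025 and 2067 of all 11664 genes.

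**Figure D3:**
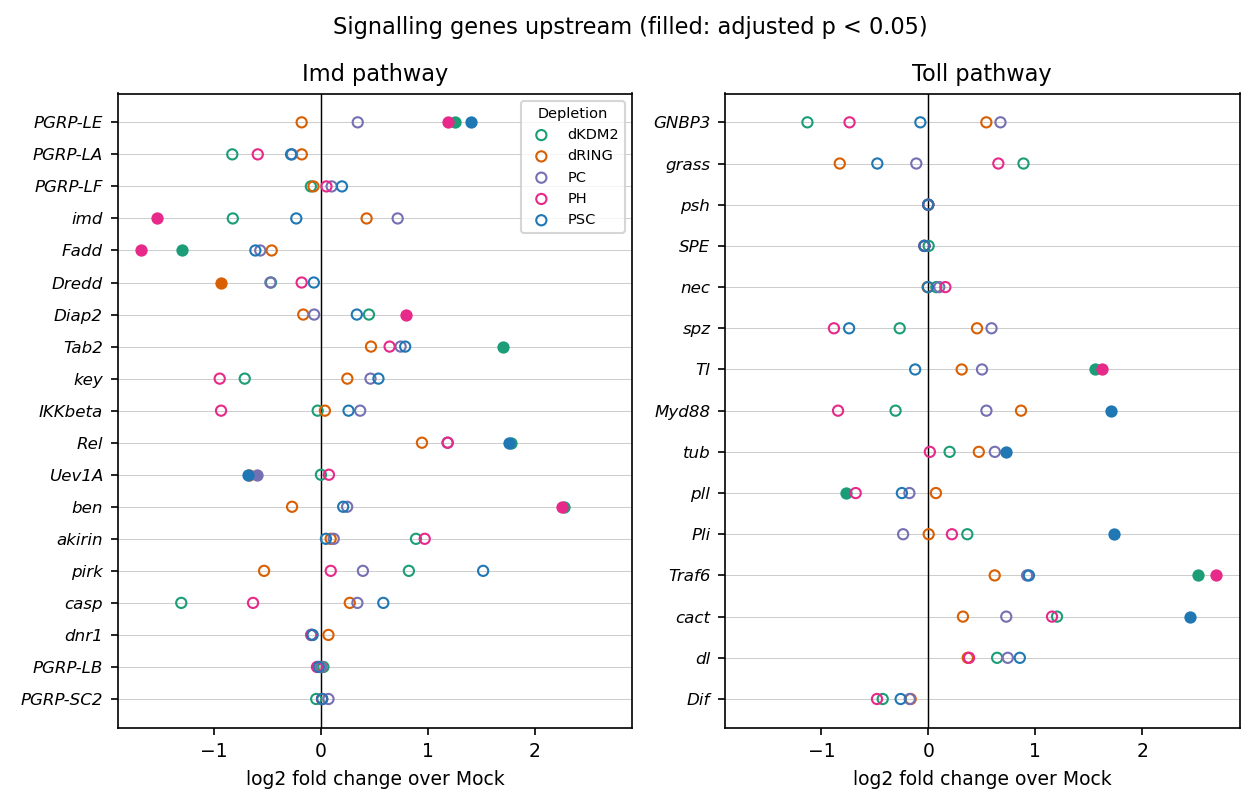
Log2 fold change over Mock (x axis) of the tested genes of the Imd pathway (left) and the Toll pathway (right), 1 row per gene and 1 colour per depletion, with filled points for an adjusted p under 0.05. cact, Pli, Myd88 and tub are filled for the arrays labelled PSC, and Traf6 and Tl for dKDM2 and PH.

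The JAK/STAT and JNK list, pathways that also act in immune and stress responses, had 9 genes tested, of which 3 were higher and 0 lower on the arrays labelled PSC, against 16.6% of all genes called. The JNK phosphatase puc rose by 2.53 and the cytokine receptor dome by 2.49 (limma adjusted p = 0.000115 and 0.000383, both kept in all 27 alternatives), and the AP-1 subunit kay rose by 1.16 (limma adjusted p = 0.0435, kept in 11 of 27, and 0.0582 to 0.190 with 1 array labelled PSC left out). The list had 4 higher and 2 lower on dKDM2 and 5 higher and 1 lower on PH. That is 66.7% of the list in each, against 33.2% and 35.1% of all genes called. The calls of dome, puc and kay on both were lost with the deposited values and with median centring. Their limma adjusted p was then 0.0537 to 0.343 on dKDM2 and 0.0683 to 0.223 on PH. The other calls of the list on these arrays were kept with both scalings. The PH count includes upd2, a cytokine gene, whose call was kept in 6 of 25 alternatives. After PC depletion 1 was higher, dome, and 0 lower, against 4.55% of all genes. That call was kept in 11 of 27 alternatives, and the change was 1.60 in the main fit (limma adjusted p = 0.0448). With Mock arrays 1 to 3 as the only controls it was 0.60, without and with the replicate number as a block (limma adjusted p = 0.813 and 0.0914). After dRING depletion limma called 0, against 2.78% of all genes. Of the 9 genes, 2 had an unadjusted p under 0.05, against 2025 of all 11664 genes.

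Because the depletions used double-stranded RNA, the 6 tested genes of the RNA interference and antiviral response were listed. Sting, a sensor of cyclic dinucleotides with an antiviral role, rose by 1.97 on the arrays labelled PSC (limma adjusted p = 3.04e-05, kept in all 27 alternatives) and by 1.28 on PH (limma adjusted p = 0.00131). The PH call was lost with the deposited values, median centring and the poly-A covariate, where the change was 0.71, 0.57 and 0.43 (limma adjusted p = 0.0699, 0.185 and 0.705). Nazo, an antiviral effector, fell by 1.65 on dKDM2 (limma adjusted p = 0.000125). No other gene of the list was called in a comparison with Mock. The list thus had 1 of 6 called on the arrays labelled PSC, on PH and on dKDM2 each, against 16.6%, 35.1% and 33.2% of all genes. After dRING and PC depletion limma called 0 of 6, against 2.78% and 4.55%. In each, 1 gene had an unadjusted p under 0.05, against 2025 and 2067 of all 11664 genes.

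Of 8 other tested regulators of antimicrobial peptide genes, limma called 0 on the arrays labelled PSC, against 16.6% of all genes. There, 1 had an unadjusted p under 0.05, against 3099 of all 11664 genes. The GATA factor srp, which blood cells and fat body share, had a change of 0.40 there (limma adjusted p = 0.654). With Mock arrays 1 to 3 as the only controls its change was -0.65 and was called (limma adjusted p = 0.00372). The homeobox factor cad, a repressor of these genes in the gut, lay near the floor on Mock (2.29 ± 0.01, SD, n = 14) and rose by 2.48 on dRING, 3.74 on PC and 3.13 on PH (limma adjusted p = 1.04e-05, 6.21e-09 and 1.67e-08). The repressor zfh1 rose by 3.09 on dKDM2, 3.08 on PH and 2.32 on PC (limma adjusted p = 8.59e-05, 8.66e-05 and 0.0126). On PC the zfh1 call was lost without array 1 or 3 (limma adjusted p = 0.0508 and 0.0798). With Mock arrays 1 to 3 as the only controls the change was 1.15. It was then not called, without or with the replicate number as a block (limma adjusted p = 0.137 and 0.0607). The list had 2 higher on dKDM2, 1 on dRING, 2 on PC and 4 on PH, and 0 lower in each, against 33.2%, 2.78%, 4.55% and 35.1% of all genes called. The dKDM2 count includes pdm2, which differed by 0.015 at the floor. The PH count includes nub and retn, at 0.52 and 0.15, whose changes were 0.013 and -0.016 without PH array 1 (limma adjusted p = 1 and 0.862).

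Markers of blood cells and fat body were also read in the 5 depletions. Of 9 plasmatocyte markers, 1 was called higher and 4 lower on the arrays labelled PSC, against 16.6% of all genes called, and the mean log2 level over the 9 ran from 4.93 to 5.91 there against 6.17 to 8.34 on Mock. The changes were -4.59 for the phagocytosis receptor eater, -4.04 for the scavenger receptor Sr-CI, -3.39 for He and -2.55 for the collagen Col4a1 (limma adjusted p = 3.07e-07, 0.000564, 0.0321 and 0.0134). The calls of He and Col4a1 were lost without PSC array 1 (limma adjusted p = 0.157 and 0.126) or 2 (0.132 and 0.0795). Hml, named after its values were seen because it was the marker called higher, rose by 0.59 (limma adjusted p = 0.00377, kept in 25 of 27 alternatives). Sr-CI was at or near the floor on these arrays, at 2.27 to 2.54, and of the 4 tested fat body markers Fbp2 was called, by 0.25 and near the floor (limma adjusted p = 0.0403), and its change was 0.0096 without PSC array 1. The part of these markers in the AttD result was not tested. On the PH arrays the marker mean was 6.11 to 6.83, with 1 marker higher and 3 lower against 35.1% of all genes called. The marker called higher there was crq, by 1.91 (limma adjusted p = 0.000707, kept in 24 of 26 alternatives). Lower were eater, the collagen vkg and Hml, by 3.13, 2.86 and 0.38 on the log2 scale (limma adjusted p = 2.31e-05, 0.0101 and 0.0388). The Hml call was kept in 16 of 26 alternatives. With the poly-A covariate eater was -2.55 and vkg 1.27, and neither was called (limma adjusted p = 0.0858 and 0.633), and without PH array 3 vkg was not either (0.0743). On the dKDM2 arrays the marker mean was 6.75 to 7.52, within the Mock range, with 1 marker higher and 0 lower against 33.2% of all genes. That marker was crq, at 1.32 (limma adjusted p = 0.0155, kept in 21 of 26 alternatives). PC depletion had 2 higher and 0 lower, against 4.55% of all genes: Hml by 1.58 and NimC1 by 0.27 (limma adjusted p = 6.47e-08 and 0.0240). On dRING limma called 0, against 2.78% of all genes. There, 1 marker had an unadjusted p under 0.05, against 2025 of all 11664 genes. Of 4 crystal cell markers 1, peb, was called higher on PC and on PH, against 4.55% and 35.1% of all genes. Its change was 0.91 and 2.43 (limma adjusted p = 2.73e-06 and 7.37e-15). Limma called 0 of 4 lamellocyte markers in each depletion, with 2 at an unadjusted p under 0.05 on PH and 1 on the arrays labelled PSC. Of all 11664 genes, 4882 and 3099 had such a p there.

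The genes with the pattern most like AttD over the 29 arrays were CG8353, CG11836 and CG8399, with Pearson r of 0.85, 0.84 and 0.82 among 5227 genes whose values span more than 2. These were chosen on the same arrays, so their levels are a description. CG8353 ran from 4.17 to 8.08 on Mock and from 9.14 to 10.66 on the arrays labelled PSC. CG11836 ran from 3.42 to 4.95 on Mock and from 6.99 to 7.97 on the arrays labelled PSC. CG8399 ran from 2.74 to 4.87 on Mock and from 5.69 to 6.08 there. In each of the 3, the arrays labelled PSC lay above all Mock arrays.

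**Figure D4:**
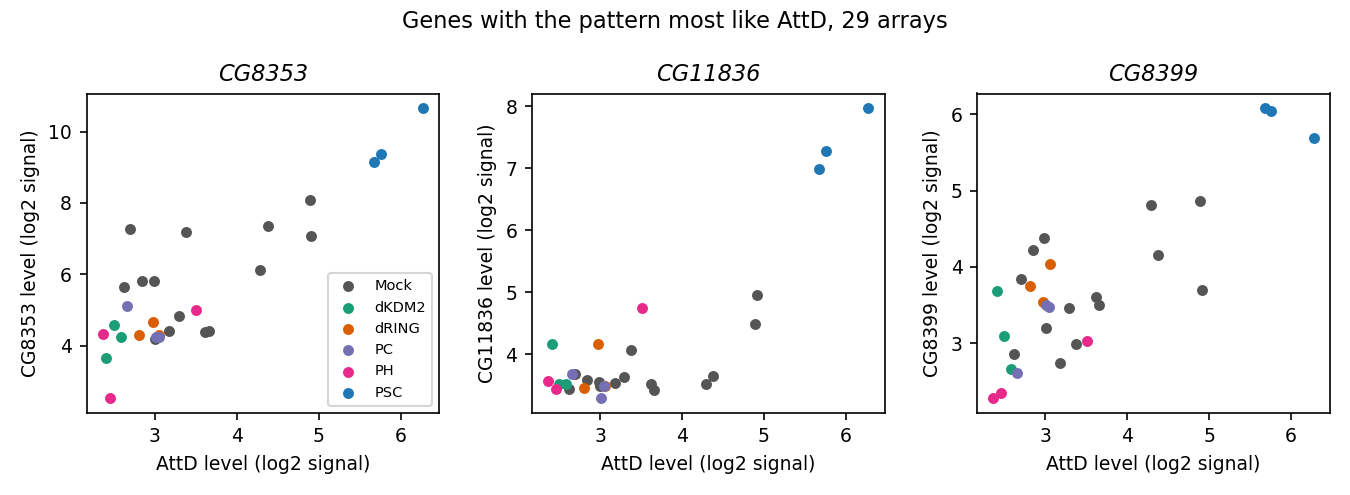
Log2 signal of CG8353, CG11836 and CG8399 (y axis, 1 panel each) against that of AttD (x axis) on all 29 arrays, coloured by group. The arrays labelled PSC stand alone at the upper right, with AttD between 5.68 and 6.28.

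For Drs the genes most alike were CG8369, CG9815 and the neuropeptide receptor gene CCAP-R, with r of 0.68, 0.66 and 0.66 over the same arrays. For Mtk they were Obp99c, an odorant-binding protein gene, Rph and GstD4, a glutathione transferase gene, with r of 0.89, 0.85 and 0.82. Their highest Mock values, all on Mock array 4, were 5.99, 7.08 and 6.23, against Mock medians of 2.30, 2.45 and 2.44. Mtk was also highest on that array, at 5.37, and the correlations without it were not tested.

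The nearest genes on the chromosome, 3 tested genes on each side by the order of the Release 6 plus ISO1 MT annotation, were also read, a choice made after values were seen. By limma, 0 of the 6 neighbours of AttD were called on the arrays labelled PSC, against 16.6% of all genes. An unadjusted p under 0.05 was seen for 0 of these 6, against 3099 of all 11664 genes. Their changes lay between -0.07 and 0.53, and CG14324, CG14326, CG14323 and CG14325 lay at or near the floor in both groups. The largest change was that of CG7523, at 0.53 (limma adjusted p = 0.189). On dKDM2, where AttD was lower, 2 of these 6 were called, against 33.2% of all genes. They were CG7523 at -1.02 and CG14323 at 0.36 (limma adjusted p = 0.00295 and 0.0171). On PH 2 of the 6 were called, against 35.1% of all genes. The neighbours of Drs include Drsl1 and Drsl6, members of the same family, at -0.02 and -0.01 on the arrays labelled PSC. Limma called 0 of the 6 neighbours of Drs on those arrays, with 2 at an unadjusted p under 0.05, against 3099 of all 11664 genes. Of the 6 neighbours of Mtk 1 was called there, CG8180, which rose by 0.98 (limma adjusted p = 0.000564). Of the 6 neighbours of DptB 2 were called there, Jheh2 at -1.13 and Vha100-3 at 0.45 (limma adjusted p = 0.0219 and 0.0315).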

How the data were processed

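Affymetrix arrays of 29 samples were analysed. The values are log2 signals as deposited by the authors, 1 series-wide table with a floor of 2.27, and RMA and GCRMA are named in the submitters' processing notes without a role or version. Further steps by the authors are not given in the sources used here. Of 18952 probe sets, 183 were controls, 13646 named 1 gene, 402 several and 4721 none; 13543 of the 13646 were matched by Entrez identifier to the Release 6 plus ISO1 MT table, which served for names and neighbours only.

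Array medians spread by 0.201, over the limit of 0.1, so values were quantile normalized, and the lowest value on each array was then 2.27. The brightest probe set stood for each gene, and 317 genes that never left the floor were dropped. All 29 arrays were fitted together with limma 3.58.1 in R 4.3.3 (6 group means, eBayes with trend, two-sided, Benjamini-Hochberg over 11664 genes), and called means an adjusted p under 0.05. Correlations used Python 3.11.15 and scipy 1.17.1 with 100000 permutations. The number of arrays limits the precision. The fit was tested on simulated data.

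Genes to name were all members, the 3 genes most correlated with each member whose values span more than 2, up to 4 called genes per list and depletion with the largest change, and Rel, srp, Sce, Pc and Psc. Not every called gene so chosen is printed, among them hep, called higher on dKDM2 and PH. With the poly-A covariate the hep call was lost on both (limma adjusted p = 0.437 and 0.349). The members and lists were chosen with earlier results of these data known. Alternatives changed the scaling, the controls, the block, the probe set rule, the filter, a poly-A covariate, the variance trend and each array in turn.

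Same-numbered arrays were checked for pairing by correlating their deviations from group means. Of 45 correlations 24 exceeded 0.1, with a range of -0.198 to 0.923. All numbers passed for Mock with dRING and PC, among dRING, PC and PSC, and for dKDM2 with PH, but not for Mock with PSC, dKDM2 or PH.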

Additional observations from a re-analysis of the deposited data

Results flagged for a closer look

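AttD differed between the arrays labelled PSC and each other depletion when the difference itself was tested across all genes with limma. The difference was -3.41 on the log2 scale for dKDM2, -2.96 for dRING, -3.00 for PC and -3.13 for PH, each minus the arrays labelled PSC. Every array labelled PSC was higher than every array of the other depletions. Drs differed between dKDM2 and the arrays labelled PSC by -2.02, and all 3 dKDM2 arrays lay below all 3 arrays labelled PSC. The Mock group, with 14 arrays, was too large for the check on single outlying arrays, and Mock array 4 was far from the others for Mtk at 5.37.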

How the results depend on the processing

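The count of members called on the arrays labelled PSC was 1 in every alternative, and after dRING and PC depletion it was 0 in every alternative. On dKDM2 the count of 1 became 0 with the deposited values, with median centring, with the poly-A covariate and without all number 3 arrays. It became 2 with Mock 1 to 3 alone, 2 with the replicate block and 2 with the dim filter. Leaving out 1 array gave 0 to 1. On PH the count of 0 became 1 with the deposited values, 2 with Mock 1 to 3 alone and 1 with the replicate block. Between depletions 5 calls became 8 with the deposited values. The added calls were DptB for dRING and for PC against PH, and Drs for PC against the arrays labelled PSC. Leaving out all number 3 arrays, and leaving out the dKDM2 and PH arrays, were chosen after seeing the data.

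Signs turned in these cases, and the cause was not tested. With the poly-A covariate the change was 0.066 for DptB on dKDM2, and on PH 1.23 for Drs, 0.27 for imd, -0.11 for PGRP-LE, -0.18 for Tl and 1.27 for vkg; Drsl4 on dKDM2 was -0.033. With median centring Drsl4 was -0.024 on PH and -0.12 on dKDM2. With the deposited values Drsl4 on dKDM2 was -0.034 and DptB on the arrays labelled PSC 0.013. With Mock 1 to 3 alone and with the replicate block, Drs on PH was 0.056, DptB on the arrays labelled PSC 0.036, Rel on dRING -0.11 and srp on the arrays labelled PSC -0.65. Without single arrays, DptB on PH ranged from -0.031 to 0.18, Drs on PH from -0.86 to 0.51, DptB on the arrays labelled PSC from -0.059 to 0.012 and retn on PH from -0.016 to 0.24. Without all number 3 arrays DptB on PH was -0.035.

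Over all genes, calls on PH were 4097, and 1838 with the poly-A covariate. On dKDM2 they were 3871, and 2565 with that covariate. On dRING they were 324, and 178 with the deposited values, 163 with median centring, 153 with Mock 1 to 3 alone, 176 without all number 3 arrays and 536 with the dim filter. On PC they were 531, and 260 with Mock 1 to 3 alone, and on the arrays labelled PSC 1931, and 1126 with Mock 1 to 3 alone. Against the arrays labelled PSC, calls were 393 for dRING and 459 for PC, and 911 and 1009 with the replicate block. Genes higher and lower on dKDM2 were 2152 and 1719, and 1512 and 2386 with median centring; on PH they were 2303 and 1794, and 1575 and 2804. Members near the floor, as DptB and Def are, limit what a fall can show, and 5 of the 10 members were not analysed.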
